A study of Drosophila melanogaster with 2 samples.

Results

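The 9 genes described here belong to the insulin and TOR pathway or, like the kinase gene Lk6, act beside it, and they were examined for binding of Six4-GFP in whole Drosophila melanogaster embryos. The embryos came from a transgenic line with GFP fused to the C terminus of Six4, a homeodomain protein related to sine oculis. They were 0 to 16 hours old and of both sexes, and bound DNA was recovered with an antibody against GFP and sequenced (ChIP-seq). Both samples, biological replicates 1 and 3, belong to 1 group, so no comparison between conditions was made and the only spread known is that between these libraries. All cell types of the embryo are mixed, so binding in fewer cells and weaker binding per cell cannot be told apart. No library from embryos without the fusion was analysed here. The members were InR, chico, Akt, Tor, S6k, Thor, Tsc1, gig and Lk6, 9 of 13945 protein-coding genes. They were chosen by name with their peaks in these data already known, so their counts and signals are given as a description with no test. A gene was said to hold a summit when the highest point of a peak of the irreproducible discovery rate (IDR) set fell in the gene body or within 2 kb of it. That set holds 3974 peaks with signals from 81.1 to 1741, in the scale of the authors' peak caller.

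Insulin-like peptides bind the receptor InR at the cell surface, and chico, the insulin receptor substrate, passes the signal to a lipid kinase that recruits the kinase Akt. The complex of Tsc1 with gig, the fly Tsc2, restrains the kinase Tor, and Akt can relieve that restraint. Tor in turn activates the kinase S6k and inhibits Thor, the fly 4E-BP, which blocks the cap-binding protein eIF4E and with it translation. Lk6 is a relative of the mammalian Mnk kinases, which act below MAP kinases and phosphorylate eIF4E. In flies the pathway is known for setting cell and body size according to nutrition.

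DNA from peaks in the windows of these genes is shown first, since it is what was recovered with the fusion protein. It is given on the plus strand of dm6 (Release 6 genome), at most 300 bases around the summit and without annotated UTRs. Only stretches with a match to the words listed below are printed. The other member peaks, among them the stronger peak of Akt and that of Thor, had no such match in their stretch. The Thor stretch printed ends before its summit, which lies in the 5′ UTR. Capitals mark, on either strand, matches to words known from DNA-binding proteins or from core promoters. These were TGATAC, known from Six4 and its relatives, and TAATTA, known from other homeodomain proteins. Further words were TATCGATA, the DNA replication-related element, and GTAAACA, known from forkhead proteins such as foxo. The E-box CACGTG, the word GAGAG of the factor Trl, and the core promoter word TATAAA completed the search.
Lk6, intron, chr3R:11760896-11761195: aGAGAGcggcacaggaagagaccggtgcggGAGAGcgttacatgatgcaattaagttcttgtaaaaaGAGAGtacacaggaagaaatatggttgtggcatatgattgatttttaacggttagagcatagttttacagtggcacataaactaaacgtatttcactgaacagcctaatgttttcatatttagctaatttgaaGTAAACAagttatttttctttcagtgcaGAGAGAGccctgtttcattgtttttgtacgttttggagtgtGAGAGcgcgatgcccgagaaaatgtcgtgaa
InR, strongest peak, intron, chr3R:21590697-21590996: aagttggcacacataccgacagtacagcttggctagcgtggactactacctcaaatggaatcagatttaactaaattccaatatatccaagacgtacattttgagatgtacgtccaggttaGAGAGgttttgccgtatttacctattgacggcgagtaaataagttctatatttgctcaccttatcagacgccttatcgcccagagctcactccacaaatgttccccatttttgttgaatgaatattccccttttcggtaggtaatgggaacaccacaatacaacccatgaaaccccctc
InR, intron, stronger in replicate 1, chr3R:21613414-21613713: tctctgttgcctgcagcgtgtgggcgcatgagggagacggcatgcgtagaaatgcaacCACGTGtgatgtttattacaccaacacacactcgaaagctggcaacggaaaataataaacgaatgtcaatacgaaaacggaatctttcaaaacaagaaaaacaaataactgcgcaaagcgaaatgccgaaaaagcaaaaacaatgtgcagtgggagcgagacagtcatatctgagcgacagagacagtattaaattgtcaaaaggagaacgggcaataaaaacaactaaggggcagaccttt
Tor, between Vha68-1 and Tor, chr2L:13004108-13004383: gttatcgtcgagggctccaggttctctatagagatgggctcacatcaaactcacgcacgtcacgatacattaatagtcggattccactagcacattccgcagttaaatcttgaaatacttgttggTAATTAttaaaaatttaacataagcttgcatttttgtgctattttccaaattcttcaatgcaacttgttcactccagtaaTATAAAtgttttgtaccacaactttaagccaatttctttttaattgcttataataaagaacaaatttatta
Akt, upstream of the start, chr3R:16098964-16099227: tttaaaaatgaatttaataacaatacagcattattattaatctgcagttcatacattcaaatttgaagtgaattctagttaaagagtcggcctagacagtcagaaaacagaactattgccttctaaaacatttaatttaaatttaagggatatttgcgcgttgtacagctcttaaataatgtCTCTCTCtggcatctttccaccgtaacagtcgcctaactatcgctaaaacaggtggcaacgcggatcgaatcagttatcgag
Thor, up to the base before the start, chr2L:3478314-3478433: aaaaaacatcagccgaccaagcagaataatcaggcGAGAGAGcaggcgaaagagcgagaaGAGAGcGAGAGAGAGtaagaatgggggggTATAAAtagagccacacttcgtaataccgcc

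Summits were found in the windows of 5 of the 9 genes, namely InR with 5 summits, Akt and Thor with 2 each, and Tor and Lk6 with 1 each. The windows of chico, S6k, Tsc1 and gig held none. Over all protein-coding genes the share with a summit was 31.2%. Genes were then put into 4 groups of about equal size by window length, and the share was 17.0% in the group of shortest windows and 47.4% in the group of longest windows (9.00 kb and more). Of the 9 members 6 belong to the group of longest windows, and 4 of these 6 held a summit. The windows of chico and Tsc1 belong to the group from 6.17 to 9.00 kb, in which 33.5% of genes held a summit. Thor, with a window of 5.18 kb, lies at the upper edge of the group of shortest windows. In the next group, from 5.18 to 6.17 kb, 26.9% of genes held a summit. A long window has more room for a summit, and the count of 5 among 9 is read beside these shares only. The 11 summits had a median signal of 138, beside 128 for the IDR set. Among transcription start sites (TSS) of protein-coding genes, the nearest was one of the member itself for 9 of the 11. Of the 11, 4 lay within 500 bp of a TSS of the member. Starts of noncoding genes were not compared. The windows were drawn around the members, which favours their own starts, and the share of all IDR summits near a TSS was not counted. All 11 peaks overlapped an entry in the list of each replicate, as did 3970 of the 3974 IDR peaks. Of the 11, 9 ranked within the first 3974 entries of both lists, and the same share over the whole set was not counted. The weakest of the 11 was a Thor peak (signal 82.7, rank 3858). Among pooled entries in the windows of the 9 genes, the strongest outside the set lay in an intron of InR (77.6, rank 4221).

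**Figure D1:**
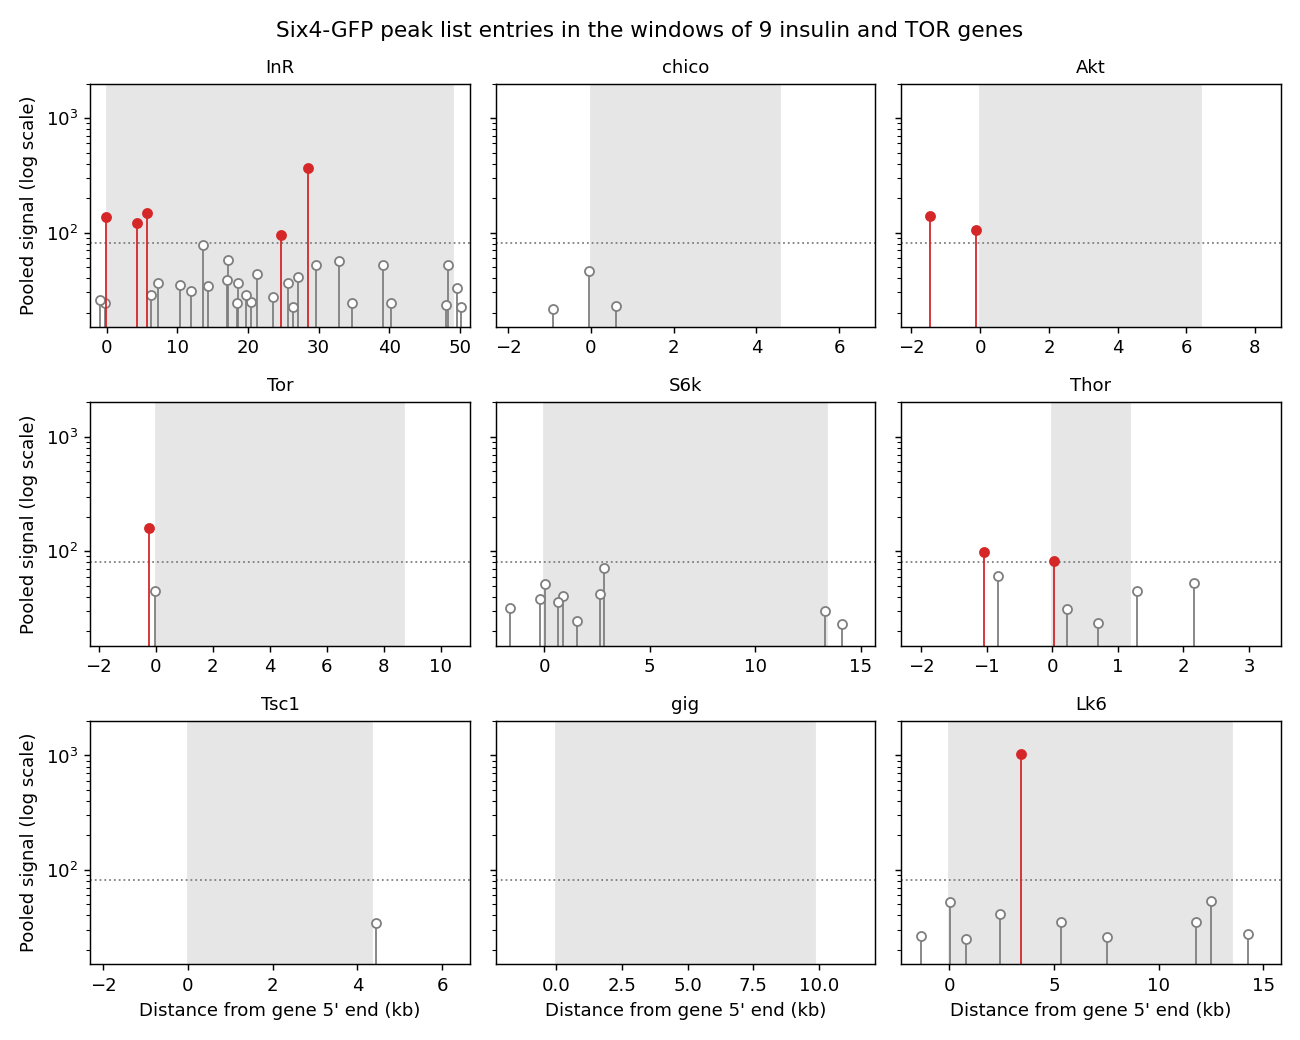
Signal of every entry of the pooled peak list (log scale) against distance from the 5′ end of each gene in kb, with the gene body shaded. Filled red points are IDR peaks, open points are entries below the set, and the dotted line is the weakest IDR signal of 81.1. Lk6 has 1 tall peak over a low floor, InR has 5 peaks along its length, and gig has no entry at all.

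Lk6 carried the strongest peak of the 9 genes. The peak (3R, 11760870 to 11761235) had a pooled signal of 1033 and ranked 9 of 3974. In replicate 1 it had a signal of 451 and ranked 9, and in replicate 3 it had 588 and ranked 11. The summits of the replicates lay 1 and 10 bp from the pooled summit, so both libraries placed it at the same point. Lk6 (FBgn0017581) lies on the minus strand of 3R (11750931 to 11764457) and has 2 annotated starts. The summit was in intron 1 of the 5 introns of the long transcript, 3412 bp into the gene, and 966 bp upstream of the start of the short transcript. No other protein-coding gene had this summit in its window, and the next IDR summit lay 13126 bp away.

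The rest of the Lk6 window held 9 weaker pooled entries, with signals from 25.0 to 53.0, all below the IDR set. Its next strongest entry, in the 3′ UTR, had a pooled signal of 53.0, so the intronic peak was 19.5-fold higher. The same ratio between first and next entry was 10.6 in replicate 1 and 17.8 in replicate 3. The start of the long transcript had an entry of 52.6 (rank 7319) 49 bp inside the gene. That entry had a signal of 42.6 and rank 3303 in replicate 1, whereas the nearest entry of replicate 3 lay 324 bp inside the gene with 33.0 and rank 6131. With the 3974 strongest entries of replicate 1 alone in place of the IDR set, Lk6 had 2 summits rather than 1. In all, 19 protein-coding genes had a stronger summit in their window than Lk6, and 3034 genes held exactly 1 summit with a median signal of 132. Of the genes with 1 summit, those closest to Lk6 in log2 signal over the 2 replicates were CG11808, CG8079, Hex-C and mRpL41, at a distance of 0.01. Their windows share a single peak, 139 bp upstream of the start of mRpL41, with 452 in replicate 1 and 594 in replicate 3.

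**Figure D2:**
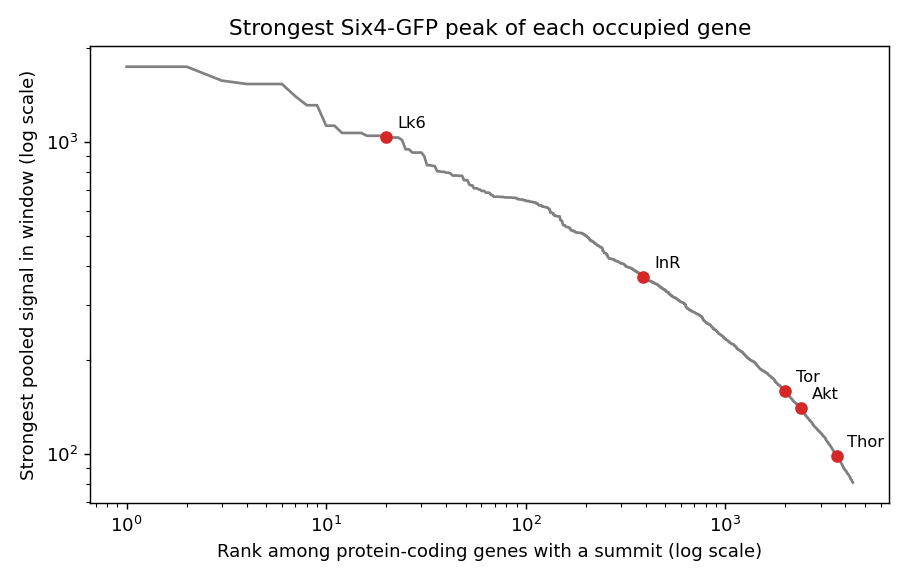
Strongest pooled signal in the window (log scale) against rank among the 4352 protein-coding genes with a summit (log scale), with the 5 members marked in red. Lk6 has 19 genes above it, InR 387, Tor 1984, Akt 2382 and Thor 3610.

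InR, the receptor of the pathway, held more summits than any other member. The gene (FBgn0283499) lies on the minus strand of 3R (21570248 to 21619321) and has 4 annotated starts. Its window of 53.1 kb, the longest of the members, held 0.94 summits per 10 kb. The same density was 3.86 for Thor, 1.92 for Akt, 0.79 for Tor and 0.57 for Lk6. These members held 1 or 2 summits each, so their densities rest largely on window length. The density over all genes was not counted. Across all protein-coding genes 88 (0.631%) held 5 or more summits. Among the 321 genes with a window at least as long as that of InR the median was 1 summit and 46 held 5 or more. The window of InR also contained 28 pooled entries below the IDR set.

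The strongest InR peak (21590731 to 21590948) lay in an intron, 655 bp upstream of the start that lies farthest into the gene. It had a pooled signal of 369 and ranked 220. Its signal was 202 in replicate 1 (rank 116) and 164 in replicate 3 (rank 400), with both summits on the same base as the pooled one. A further peak over the 5′ end of the gene (21619158 to 21619581) had its summit 49 bp upstream of the first start and a pooled signal of 138. It had 53.6 in replicate 1 and 91.0 in replicate 3, so here the order of the replicates was the opposite. This summit was also in the window of E2f1, a cell cycle transcription factor on the same strand. The annotated 3′ end of E2f1 is separated from the InR start by 982 bp.

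Intron 1 of the long InR transcripts, 15.4 or 15.2 kb in length, held a pair of summits. The one nearer the start (21614783 to 21615206) had a pooled signal of 122, with 51.8 in replicate 1 and 68.0 in replicate 3. The one farther into the gene (21613351 to 21613774) had a pooled signal of 149.5, with 111 in replicate 1 (rank 548) and 37.2 in replicate 3 (rank 5211). It was therefore a strong site in replicate 1 and lay outside the first 3974 entries of replicate 3. The last InR peak (21594405 to 21594828) lay in an intron of InR and in an exon of the noncoding gene lncRNA:Irar. It had a pooled signal of 94.6, the lowest of the 5, with 43.7 in replicate 1 and 46.2 in replicate 3. Among the 3974 strongest entries of each library, 6 of replicate 1 and 4 of replicate 3 lay in the InR window.

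Akt (FBgn0010379, plus strand of 3R, 16099228 to 16105670) had both its summits upstream of the gene. The nearer peak (16098901 to 16099324) had its summit 115 bp before the start, with a pooled signal of 106. It had 54.0 in replicate 1 and 48.7 in replicate 3. The farther peak (16097565 to 16097988), 1451 bp before the start, was stronger, with a pooled signal of 140.2, and 58.7 in replicate 1 and 81.1 in replicate 3. Its summit was in an intron of Mhcl, a myosin heavy chain-like gene on the opposite strand, and was nearer to the start of Mhcl (984 bp) than to that of Akt. The nearer peak was thus higher in replicate 1 and the farther one in replicate 3. No entry of the pooled list had its summit in the Akt gene body.

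Tor (mTor in the annotation, FBgn0021796, plus strand of 2L, 13004480 to 13013197) had a single peak at its divergent promoter. The peak (13004021 to 13004444) had a pooled signal of 159 and ranked 1371. It had 76.7 in replicate 1 (rank 1197) and 83.0 in replicate 3 (rank 1572), a log2 ratio of 0.11. Both libraries ranked it within the first 3974 entries. The summit lay 247 bp upstream of Tor and 126 bp upstream of Vha68-1, which encodes a subunit of the vacuolar proton pump. The starts of these genes are separated by 372 bp. To which of the genes the peak belongs cannot be told apart. A weaker entry 43 bp upstream of Tor had a pooled signal of 44.8 and was below the IDR set.

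Thor (FBgn0261560, plus strand of 2L, 3478434 to 3479612), the translation inhibitor, held a pair of weak peaks. That at the promoter (3478251 to 3478674) had its summit in the 5′ UTR, 29 bp past the start, and a pooled signal of 82.7. It had 60.3 in replicate 1 (rank 1864) and 23.7 in replicate 3 (rank 10366). The −log10 of the q value, the false discovery rate given by the peak caller, was 3.82 in replicate 1 and 0.64 in replicate 3, so it was among the stronger entries in 1 library alone. The other (3477188 to 3477611) lay 1034 bp before the start in an exon of the noncoding gene lncRNA:CR43928, with a pooled signal of 98.7. It had 37.9 in replicate 1 (rank 3973) and 57.8 in replicate 3 (rank 2817), and the summit in replicate 3 was displaced by 173 bp. A weaker pooled entry beside it, 827 bp before the start, had a signal of 60.2 and lay closer to the summit of replicate 3.

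Signals of matched peaks were higher in replicate 3 than in replicate 1 as a rule. Over the 3970 IDR peaks matched in both lists, the median log2 ratio of replicate 3 to replicate 1 was 0.36, with 90% of peaks between −0.53 and 1.17. The Lk6 peak, at 0.38, was next to the median. The Thor promoter (−1.35) and the InR intron peak with 111 in replicate 1 (−1.58) were at the low end, since 0.629% and 0.377% of peaks had a lower ratio. The other 8 member peaks lay between −0.30 and 0.77, inside the central range. Read depth of the libraries is unknown, and its part in these ratios was not tested.

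**Figure D3:**
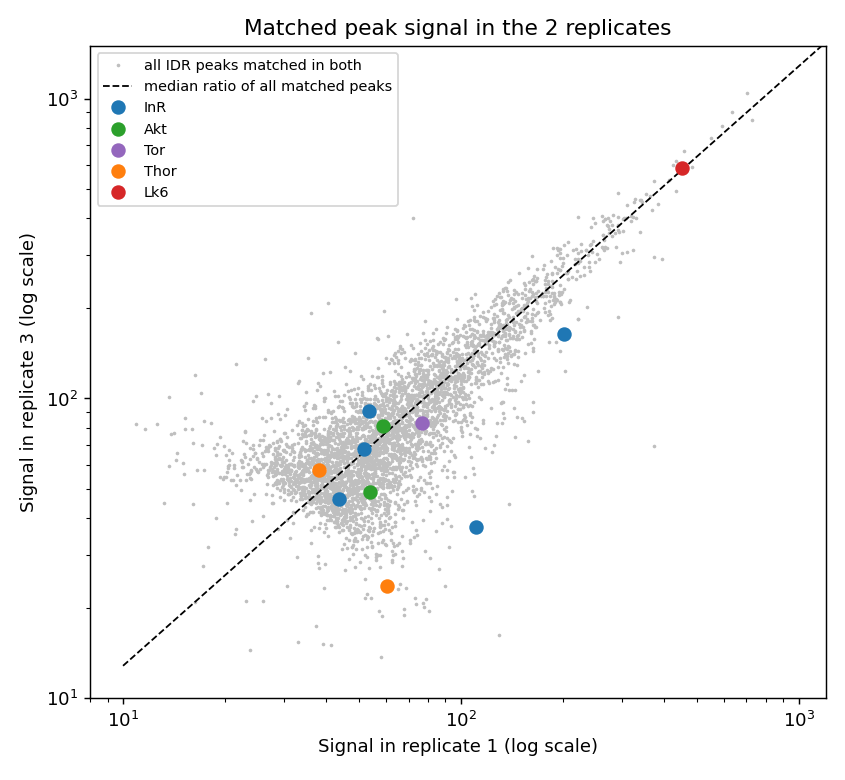
Signal in replicate 3 against signal in replicate 1 for all matched IDR peaks (grey; log scales), with the 11 member peaks coloured by gene. The dashed line is the median ratio. The Lk6 peak sits on the line at 451 and 588, while an InR and a Thor peak lie far below it.

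Among the 4 members with no IDR summit, S6k came nearest to the set. S6k (FBgn0283472, minus strand of 3L, 5797549 to 5810931) had 10 pooled entries, the strongest with a signal of 72.0 and rank 4729 in an intron 2834 bp past the start. In replicate 3 the entry there had 46.8 and rank 3820. The overlapping entry of replicate 1 had 22.4 and rank 9097, with its summit displaced by 152 bp. That summit lay nearer to a weaker pooled entry with a signal of 42.2. Replicate 1 had its own strongest S6k entry, of 39.1 and rank 3819, 129 bp upstream of the start. Each library alone would thus have put S6k among the genes with a summit, but at different places.

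The insulin receptor substrate gene and both genes of the Tsc complex had weaker pooled entries than S6k, or none. At chico (FBgn0024248, minus strand of 2L, 10242512 to 10247078) an entry 37 bp upstream of the start had a pooled signal of 46.2 (rank 8799). It had 35.3 in replicate 1 (rank 4457, −log10 q of 3.47) and no overlapping entry in replicate 3, so it was seen in 1 library alone. The single pooled entry in the window of Tsc1 (FBgn0026317, plus strand of 3R, 24130307 to 24134654) had 34.2, with 13.2 in replicate 1 and 21.8 in replicate 3, and lay past its 3′ end, 87 bp upstream of Sec10. The window of gig (FBgn0005198, plus strand of 3L, 20129181 to 20139010) held no pooled entry, none of replicate 3 and 1 of replicate 1, with a signal of 17.0. Windows without a pooled entry made up 22.6% of all protein-coding genes and 6.57% of the group of longest windows, to which gig belongs.

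Within 100 bp of the member summits no word searched occurred at more than 4 of the 11. In this window TGATAC occurred at 1 of 11, the Thor promoter, past the end of the stretch printed, beside 6.49% of all 3974 IDR summits. TAATTA occurred at 1, with the Tor summit on its first base, beside 18.4% of all. GTAAACA occurred at Lk6, with its nearer edge 51 bp from the summit, and at the Thor promoter, 66 bp from the summit and also past the printed stretch, beside 5.99% of all. CACGTG occurred at the InR intron peak with 111 in replicate 1, beside 1.91% of all, and TATCGATA at none, beside 3.40%. That InR peak and the Thor promoter peak ranked 5211 and 10366 in replicate 3, outside its first 3974 entries. A match describes letters in this window and does not show which factor was bound there.

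GAGAG and TATAAA were added after the sequences had been seen. GAGAG occurred at 4 of 11 member summits, with 3 copies at Lk6, 4 at the Thor promoter, 2 at the nearer Akt peak and 1 at the strongest InR peak, overlapping copies included and copies farther out in the printed stretches left aside, beside 22.5% of all IDR summits with 1 or more. Within 250 bp it occurred at 6 of 11, beside 52.7% of all. TATAAA occurred at 2 of 11 within 100 bp, beside 37.7% of all, and at 5 within 250 bp, beside 58.8%. In the Thor promoter its first base lay 31 bp before the start. Guanine and cytosine made up 32.3% of the bases within 100 bp of the Lk6 summit and 51.2% at the InR 5′ end, the highest of the members. The median over all IDR summits was 34.3%, with 90% of them between 24.7% and 47.3%.

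Other genes of the pathway were taken from 7 lists by role, of which 57 of 58 entries were found in the annotation. A summit lay in the window of 26 of the 57 genes (45.6%), beside 31.2% of all protein-coding genes. Of these 57 genes 25 had windows in the group of longest windows, and 16 of the 25 held a summit, beside 47.4% of all genes of that group. None of the 6 in the group of shortest windows did, beside 17.0% of all genes of that group. The median of the strongest signal was 159.5 among the 26, beside 148 among all genes with a summit. Where a window held several summits, the strongest is given. These figures describe lists chosen with earlier results of these data known. The lists by role differ in window length, so their counts are not compared with each other. The part of window length in them was not tested.

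Among ligands and their binding proteins 2 of 10 genes held a summit, beside 31.2% of all protein-coding genes. Ilp1 to Ilp5 all belong to the group of shortest windows, in which 17.0% of genes held one. ImpL2, a secreted protein that binds insulin-like peptides, had an intronic summit with a signal of 354, and 144 and 211 in replicates 1 and 3. The summit in the window of Ilp6 (138) lay in an intron of Raf and was nearest to CG2854, and Ilp1 had none. Of the list of adaptors and the PI3K branch 5 of 8 genes held a summit. All of these have windows in the 2 groups of longer windows, in which 33.5% and 47.4% of genes held one. Pi3K21B and Pi3K92E, the adaptor and catalytic subunits of the lipid kinase, had summits near their starts. That of Pi3K21B (232) lay 30 bp before the start, and that of Pi3K92E (179) lay 517 bp past it in the 5′ UTR. foxo, the forkhead factor that Akt inhibits, had a summit 266 bp upstream of its start (177), with 46.9 in replicate 1 and 99.7 in replicate 3. Lnk, an adaptor of the receptor, had none.

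Of the TOR complex list 1 of 5 genes held a summit. The share over all protein-coding genes, to be read beside each list, was 31.2%. Rheb, the GTPase that activates Tor, had a summit with a signal of 108 that was nearer to CG2931 (119 bp) than to Rheb (187 bp), and raptor had none. In the amino acid branch 5 of 10 genes held summits. Sesn, which encodes the stress-inducible Sestrin, had 4, the strongest 225 bp upstream of a start (458). The strongest summits in the windows of mio (322), a subunit of the GATOR complex, and RagC-D (136), a Rag GTPase, were nearest to papi and CG30373, and RagA-B had none. In the energy and stress branch 4 of 6 genes held summits. The strongest in the window of alc, the AMPK beta subunit, had 501 and was nearest to CG44286. scyl, a TOR inhibitor, had 163 past its 3′ end, 4247 bp from its start, SNF4Agamma, the AMPK gamma subunit, had 148, and AMPKalpha had none.

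Among outputs of TOR 6 of 13 genes held summits. Here too the share to be read beside each list was 31.2% of all protein-coding genes. The strongest in the window of eIF4EHP, a cap-binding repressor of translation, had 577 (265 and 313 in replicates 1 and 3) and lay 161 bp upstream of CG18428 and 215 bp upstream of eIF4EHP. REPTOR, a transcription factor that TOR inhibits, had an intronic summit 154 bp upstream of a start (408), with 188 in replicate 1 and 218 in replicate 3. The stronger of 2 summits in the window of Atg1, the autophagy kinase, was nearest to Sap130 (156), and RpS6 had none, nor had eIF4E1, the cap-binding protein that Thor and Lk6 act on. Of the MAP kinase list 3 of 5 genes held summits. Raf held 11 in a window of 52.4 kb, led by an intronic one of 626 (222 and 403 in replicates 1 and 3), where InR held 5 in 53.1 kb. The p38a summit (234) lay in the 5′ UTR of p38a, 156 bp upstream of a start farther into the gene. That of p38b (176) lay 225 bp upstream of a start, while rl, the fly ERK, had none in 58.5 kb.

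**Figure D4:**
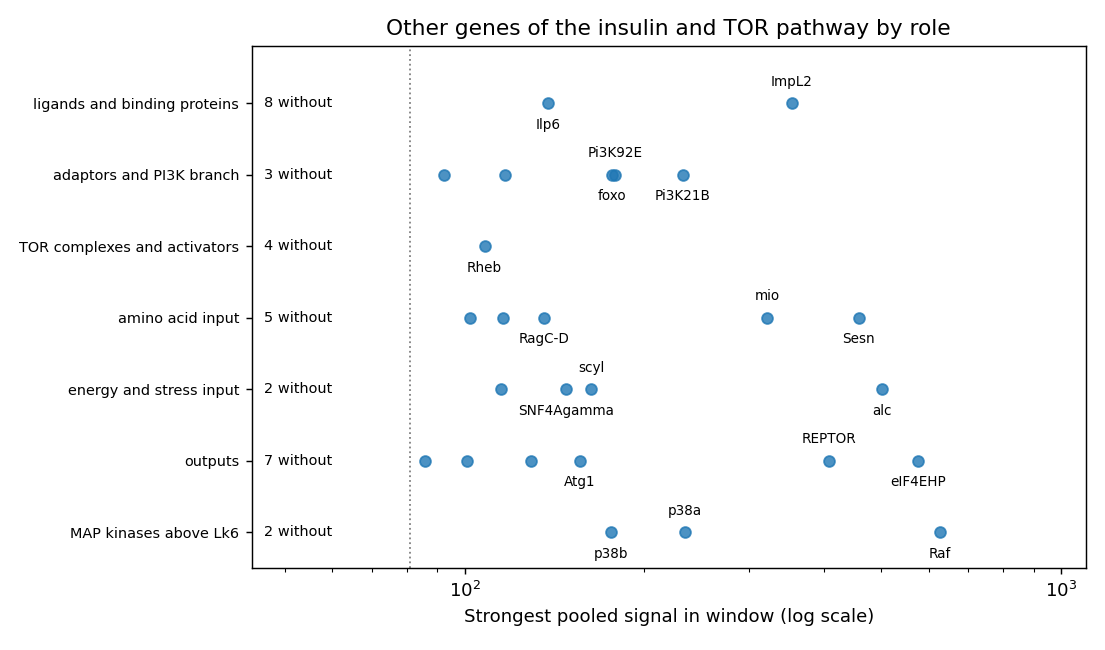
Strongest pooled signal in the window (log scale) of each other pathway gene with a summit, by role, with the number of genes without one at the left. The dotted line is the weakest IDR signal. Raf (626), eIF4EHP (577) and alc (501) have the strongest peaks, all below the 1033 of Lk6.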

How the data were processed

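Each of the 2 samples was a ChIP-seq library of Six4-GFP embryos with chromatin sonicated to 200 to 800 bp, per the labels. The authors deposited, per the file listing, lists of peaks and background for each replicate (30000 and 28237 entries) and for both pooled (30000), and an IDR set of 3974 peaks, which equals the 3974 strongest pooled entries. The deposited columns used were the signal value of the authors' peak caller and its −log10 q value. Not given in the sources used here: aligner, peak caller, versions and IDR threshold. Read depth is unknown. Replicate lists came from each replicate and 1 further input whose content the file listing does not state. Signals were ranked within each list only. The 4 dm3 lists were not used.

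Summits, counted from 1 on dm6, were assigned to protein-coding genes of Ensembl 115 (FlyBase 6.54) by gene body plus 2 kb. Distances to a TSS were taken to starts of protein-coding genes only. Replicate entries were matched by an overlap of 1 bp or more, the nearest summit being taken. Sequences were read from RefSeq's Release 6 genome, whose 6 arms contained all peak ends. RefSeq gave the same coordinates for all 9 genes, of which 8 were found by symbol and Tor by synonym as mTor. Of the pathway entries Lobe was not matched. Words were searched on both strands within 100 bp of summits, and GAGAG and TATAAA were added after the sequences were seen. Alternatives changed the window rule, the peaks used, the matching rule and the word window. Python 3.11.15 and pandas were used, and the counting rules were tested on simulated data.

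The members, lists and words were chosen with earlier results of these data known, so no test was made. In each pathway list the 3 genes with the strongest summit and the first without one in list order were named, and eIF4E1 was named in addition after its values were seen. Genes like Lk6 were those with 1 summit and the smallest distance in log2 signal over both replicates.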

Additional observations from a re-analysis of the deposited data

How the results depend on the processing

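Of 52 alternative values 34 stayed within 1.5 times the value reported. Without the 2 kb extension 3 members (InR, Thor and Lk6), 6 member summits, 14 other pathway genes and 1445 protein-coding genes (10.4%) were counted. With an extension of 5 kb members stayed at 5, with 13 member summits. The same extension gave 34 other pathway genes and 6095 protein-coding genes (43.7%). Within 500 bp of a TSS of the gene the numbers were 4 member summits, 0 for Lk6, 16 other pathway genes and 2419 protein-coding genes (17.3%). The 1987 strongest IDR peaks left 4 members (InR, Akt, Tor and Lk6), 6 member summits and 2638 protein-coding genes (18.9%). The nearest TSS rule gave 2769 protein-coding genes (19.9%). With the 3974 strongest entries of 1 library in place of the IDR set (without replicate 1 or without replicate 3), 6 members held a summit, S6k being added in both cases, with 10 to 14 member summits and 1 to 2 at Lk6. TGATAC was at 2 member summits within 250 bp, and GTAAACA and CACGTG were at 0 within 50 bp. For the words chosen after seeing the data, GAGAG was at 2 within 50 bp and 6 within 250 bp, and TATAAA at 0 and 5. No paired analysis was possible because the samples form 1 group. Depth is unknown, so a missing peak is not evidence that a site was unbound.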
